A study of Homo sapiens with 4 samples.

Results

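MYC, MYB and MYBL1 were followed through 8 h of estrogen in single Ishikawa and T-47D cells. They are 3 of 33540 features of the Ishikawa library and 3 of 33538 of the T-47D library, and each was taken by its symbol in both gene lists. MYC encodes a transcription factor that binds DNA as a partner of MAX and is known for raising genes of ribosome production, metabolism and growth. MYB (c-Myb) is the founding member of the MYB family of DNA-binding factors, long studied in blood progenitors and known as an estrogen-responsive gene in breast cancer cells. MYBL1 (A-Myb) and MYBL2 (B-Myb) are its relatives. MYBL2 acts in cycling cells together with the MuvB complex, and MYBL1 is best known from the male germ line. MYBL2 is given beside the members as the remaining family gene.

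Ishikawa is an established human endometrial adenocarcinoma line and T-47D an established human breast ductal carcinoma line. Cultures that had been kept in hormone-depleted medium received 10 nM 17β-estradiol (E2) for 2, 4 or 8 h, and the 0 h culture received the vehicle, DMSO. Each culture was marked with a membrane-anchored DNA tag (MULTI-seq), the 4 cultures of a line were mixed, and each line was run as 1 droplet library that reads the 3′ ends of transcripts. Each line and time point was therefore 1 culture, which leaves no replicate. No test and no p-value is given, and every interval is a 95% interval for counting error only.

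After the limits on cell quality, 776, 1480, 892 and 1465 Ishikawa cells and 1525, 1207, 1341 and 553 T-47D cells were kept at 0, 2, 4 and 8 h. Their unique molecular identifiers (UMIs, each 1 captured transcript) summed to between 12927799 and 33175309 per pool, and the median cell held between 19121.5 and 22576. The limits kept 38.2% of the called Ishikawa cells at 0 h against 52.4% to 55.8% at the later times. The Ishikawa counts also held a GFP reporter, at 3.17% to 4.67% of the UMIs of a pool, whose origin is not given in the labels. Markers matched the labelled lines: 6 of 6 breast luminal markers reached 10 CPM (a pool's UMIs scaled to a total of 1000000) in T-47D and 1 of 6 in Ishikawa, while 4 of 4 endometrial markers (PAX8, SOX17, EMX2 and MSX1) did so in Ishikawa and 0 of 4 in T-47D. PIP was at 0 in Ishikawa and PAX8, SOX17 and EMX2 in T-47D. The summed level of 4 fibroblast markers was 20.2 to 29.0 CPM in Ishikawa and 13.1 to 16.9 in T-47D, and its part in the members' levels was not tested. Summed immune and endothelial markers stayed at or below 1.44 CPM in every pool of either line. Of 9239 kept barcodes, 5 had the same sequence in both libraries.

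Each line held a different leading member (plot of levels over time). In Ishikawa the order at 0 h was MYC, MYBL1 and MYB, and in T-47D it was MYBL1, MYB and MYC. These levels count 3′ ends, so that a longer transcript gives no more UMIs than a short one. At 0 h MYC was 7.98-fold higher in Ishikawa than in T-47D (6.13 to 10.5), MYB was 4.04-fold higher in T-47D (2.44 to 7.13) and MYBL1 was 1.45-fold higher in T-47D (1.23 to 1.72). After E2 the gap narrowed for MYC, to between 3.68-fold and 4.44-fold. It widened for MYB, to between 10.1-fold and 13.0-fold, and for MYBL1, to between 3.40-fold and 3.86-fold. Culture, library and line cannot be told apart in these gaps.

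**Figure D1:**
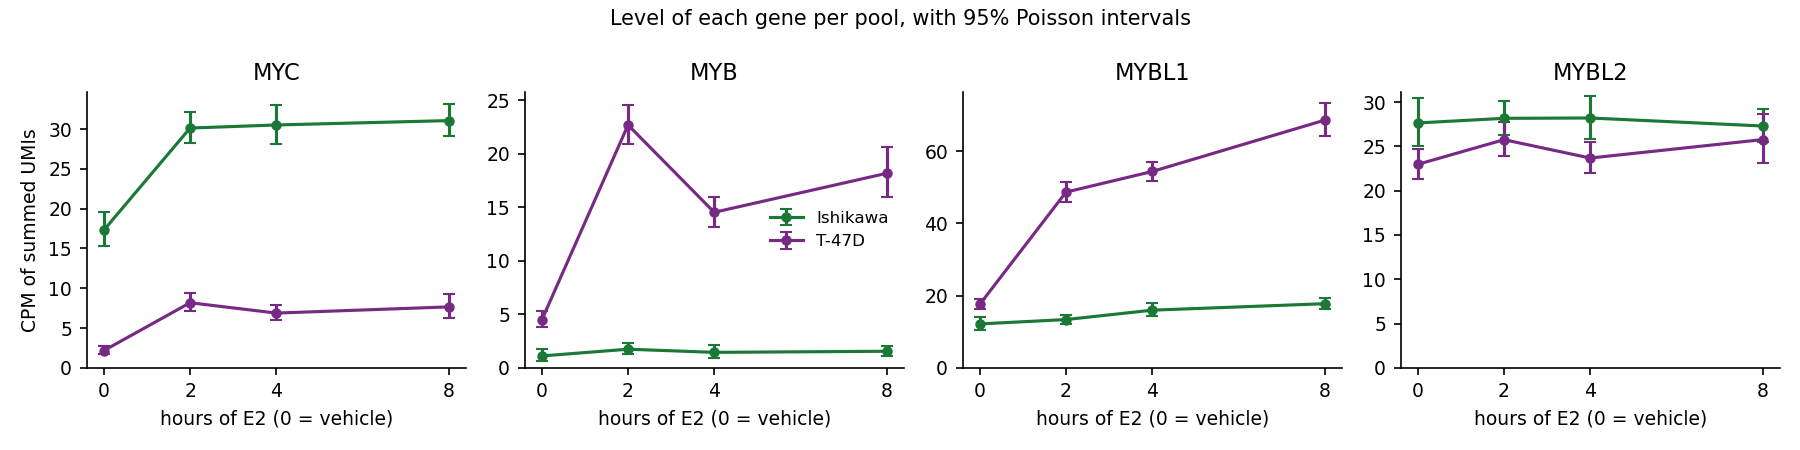
Level of MYC, MYB, MYBL1 and MYBL2 as CPM of the summed UMIs (y axis) against hours of E2 (x axis) in Ishikawa (green) and T-47D (purple). Points are 1 pool each and bars are exact 95% Poisson intervals for counting error. MYC is higher in Ishikawa, MYB and MYBL1 are higher in T-47D, and MYBL2 stays between 23.0 and 28.2 CPM in every pool.

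MYC rose early and then stayed level in Ishikawa. It stood at 17.3 CPM in the vehicle pool (15.3 to 19.5) and at 30.1, 30.5 and 31.1 CPM (29.1 to 33.1 for the last) after 2, 4 and 8 h of E2, from 265, 900, 591 and 963 UMIs. The 3 pools with E2 overlapped with each other and lay above the vehicle pool. The fold changes, taken as log2 of the ratio to the vehicle level after 1 CPM was added to each, were 0.77, 0.78 and 0.81. This scale understates the change of low genes. From 2 h to 8 h the ratio of MYC was 1.03 (0.940 to 1.13), so that no further change was detectable at this depth.

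In T-47D, MYC was scarce. It stood at 2.17 CPM in the vehicle pool (1.70 to 2.73). After E2 it was 8.18 (7.13 to 9.34), 6.88 (5.97 to 7.89) and 7.66 CPM (6.22 to 9.32) in time order, from 217, 204 and 99 UMIs against 72 in the vehicle pool. The vehicle pool was the lowest and its interval did not meet those of the pools with E2. The plain ratios to the vehicle pool were 3.77 (2.87 to 4.99), 3.17 (2.41 to 4.21) and 3.53 (2.58 to 4.85), and no step between 2, 4 and 8 h differed from 1 beyond its interval. MYC thus had a larger ratio in T-47D and a higher level in Ishikawa, and its T-47D peak of 8.18 CPM was below the Ishikawa vehicle level.

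MYB is a gene of the plus strand at chr6:135181308-135219172 of the human genome (GRCh38). The 250 bases before its start are shown because MYB ranked 1 from the top by fold change in T-47D at 2 h. That ranking took only genes averaging 10 CPM or more across the 4 pools of the line. MYB stood at 4.49 CPM at 0 h there and was let in through its levels after E2. With 5 CPM added to each level instead of 1, its log2 fold change at 2 h was 1.54 instead of 2.11. No rank is given for that setting, so the top rank is not a firm distinction. These 250 bases let a reader see what the sequence at the start does and does not hold. They run over chr6:135181058-135181307 on the plus strand (GRCh38.p14, sequence from RefSeq), and the capitals mark GGCGGGA, letters of the kind that E2F factors bind.

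MYB: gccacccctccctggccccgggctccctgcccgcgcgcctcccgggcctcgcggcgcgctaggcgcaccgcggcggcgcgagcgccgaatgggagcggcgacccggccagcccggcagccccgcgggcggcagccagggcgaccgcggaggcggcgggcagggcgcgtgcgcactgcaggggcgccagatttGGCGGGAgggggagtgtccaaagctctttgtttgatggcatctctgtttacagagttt

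This window is 75.6% G and C. On both strands it holds 0 matches of the full estrogen response element GGTCANNNTGACC and 0 of one arm of it, GGTCA. Of the 35116 promoter windows of this length in the same collection, 0.0399% and 32.6% hold these. GGCGGGA occurs 1 time, with its first base 58 bases before the start, and is held by 13.5% of the windows. CACGTG, the core of the MYC and MAX site, occurs 0 times (6.34% of windows), and AACNG, the core that MYB factors bind, occurs 1 time (70.6%). GGGCGG, a GC box, occurs 1 time (42.6%), and TGANTCA, an AP-1 site, 0 times (6.57%). These are matches of letters in 1 short window and describe no binding.

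MYB rose, fell back in part and rose again in T-47D. The vehicle pool held 4.49 CPM (3.80 to 5.27) and the pools with E2, in time order, held 22.7 (20.9 to 24.6), 14.5 (13.2 to 16.0) and 18.2 CPM (15.9 to 20.7), from 149, 602, 431 and 235 UMIs. The vehicle pool was the lowest and the 2 h pool the highest, and the interval of each of these pools met no other pool's. The log2 fold changes were 2.11, 1.5 and 1.80. From 2 h to 4 h MYB changed by a ratio of 0.641 (0.565 to 0.726) and from 4 h to 8 h by 1.25 (1.06 to 1.47). MYBL2 over the same steps had ratios of 0.920 (0.826 to 1.02) and 1.09 (0.952 to 1.24).

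Ishikawa cells held almost no MYB. The pools had 17, 52, 28 and 48 UMIs, or 1.11 (0.647 to 1.78), 1.74, 1.45 and 1.55 CPM. The ratios to the vehicle pool were 1.57 (0.892 to 2.89), 1.30 and 1.39, each with an interval that held 1. A change of MYB was thus not detectable at this depth in Ishikawa, and the interval at 2 h does not reach the ratio of 5.05 (4.22 to 6.09) of T-47D.

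MYBL1 climbed at every time point in T-47D. Its level was 17.6 CPM without E2 (16.2 to 19.1) and then 48.6 (46.0 to 51.4), 54.3 (51.7 to 57.1) and 68.5 CPM (64.1 to 73.2), from 584, 1290, 1611 and 886 UMIs. Each pool was above the one before it and no intervals overlapped. The log2 fold changes were 1.42, 1.57 and 1.90, and the steps from 2 h to 4 h and from 4 h to 8 h had ratios of 1.12 (1.04 to 1.203) and 1.26 (1.16 to 1.37). At 4 h, when MYB had dropped, MYBL1 had not.

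In Ishikawa the change of MYBL1 was smaller and later, and it stayed under 1.5-fold. Its level was 12.2 CPM without E2 (10.5 to 14.0) and then 13.4, 16.0 and 17.7 CPM (16.3 to 19.3 for the last), from 186, 399, 309 and 550 UMIs. The ratios to the vehicle pool were 1.10 (0.921 to 1.32), 1.31 (1.09 to 1.58) and 1.46 (1.23 to 1.73). The 2 h pool did not differ from the vehicle pool beyond counting error, and the 8 h pool did.

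Set against all genes, a member counted as higher when its mean over the 4 pools was at least 10 CPM and its change at least 1.5-fold. The change was taken after 1 CPM was added to each level, as above. Of the 3 members, 2 passed the minimum in Ishikawa (MYC and MYBL1) and 2 in T-47D (MYB and MYBL1). MYB passed it in T-47D through its levels after E2, as its level at 0 h was 4.49 CPM. In Ishikawa 1 member, MYC, was higher at 2, 4 and 8 h, where 0.786%, 0.634% and 0.812% of 7885 genes were higher. MYC ranked 35, 35 and 30 from the top, while MYBL1 ranked 985, 151 and 90. In T-47D 2 members, MYB and MYBL1, were higher at each time, where 1.22%, 1.33% and 2.34% of 7440 genes were higher. MYB ranked 1, 15 and 12 from the top and MYBL1 ranked 15, 13 and 8. The comparisons at 2, 4 and 8 h share 1 vehicle pool per line, so an error in that pool enters all of them. Lower by the same rule were 0.659%, 0.621% and 0.469% of the Ishikawa genes and 0.417%, 0.363% and 0.726% of the T-47D genes, with 0 members among them. MYBL2 was not past the rule in either line, with log2 fold changes from -0.02 to 0.16.

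**Figure D2:**
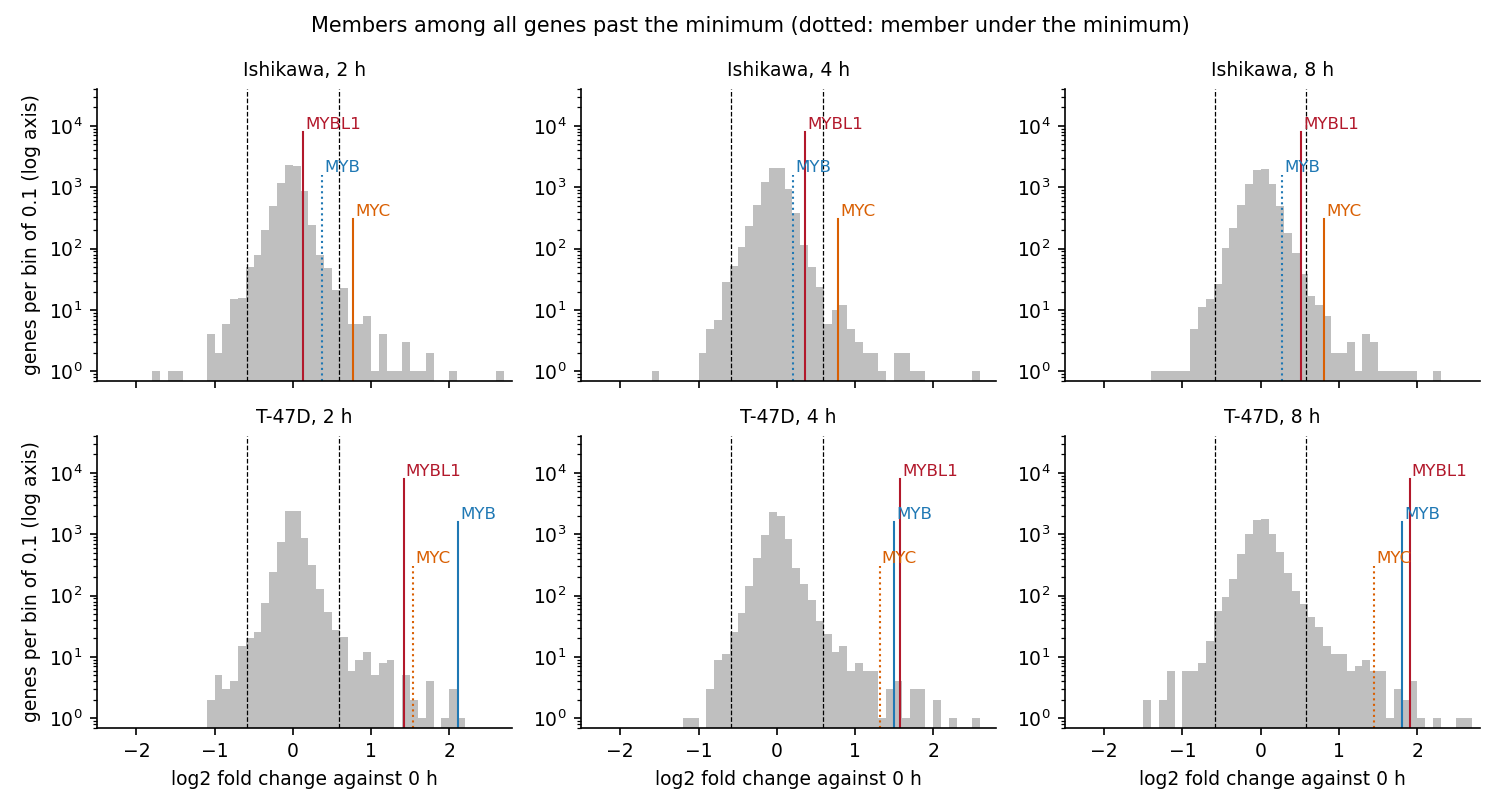
Number of genes past the minimum in bins of 0.1 of the log2 fold change against 0 h (grey, log y axis) for each line and time, with MYC, MYB and MYBL1 as vertical lines, dotted where the member was under the minimum. The dashed lines are 1.5-fold. In T-47D all 3 members lie to the right of both dashed lines at every time, and in Ishikawa MYC alone does so.

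The known estrogen-raised genes GREB1, PGR and TFF1 place the members' timing in T-47D. GREB1, an estrogen receptor cofactor, went from 10.4 CPM to 31.7, 37.8 and 47.3. PGR, the progesterone receptor, went from 129.5 CPM to 260.7, 281.0 and 355.0, and TFF1, a secreted trefoil peptide, from 4.88 to 18.3, 20.4 and 32.6. Each was higher at each later time, as MYBL1 was, although the intervals of TFF1 at 2 h and 4 h overlapped, and none had the dip of MYB at 4 h. In Ishikawa PGR and GREB1 were under the minimum but also higher after E2. PGR went from 0.915 CPM to 2.28, 2.69 and 4.71, and GREB1 from 1.18 to 2.48, 3.05 and 3.90. Their ratios to the vehicle pool at 8 h were 5.15 (2.97 to 9.65) and 3.32 (2.01 to 5.79). The vehicle pool held 14 and 18 UMIs of them. TFF1 had at most 3 UMIs in an Ishikawa pool.

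The change of MYB in T-47D showed as more cells with a UMI. Cells were thinned at random to the same number of UMIs, 14495 in T-47D and 12539 in Ishikawa, which leaves out shallower cells (34 to 194 per T-47D pool and 57 to 175 per Ishikawa pool) and makes shares comparable within a line. In T-47D a MYB UMI was seen in 5.26% of 1331 cells at 0 h (4.12% to 6.60%), 25.5% of 1082 at 2 h (22.9% to 28.2%), 16.7% of 1231 at 4 h and 20.8% of 519 at 8 h. The UMIs per positive cell were 1.2, 1.25, 1.26 and 1.27. At such low means counting by itself gives about 1 UMI per positive cell, so a small change in that number does not tell whether few cells or all cells responded. The variance of MYB over its mean (Fano factor, 1 for pure counting) was between 1.17 and 1.35. The part of free RNA in these shares was not tested, since each library held 1 line and so no cells that should lack the gene.

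MYBL1 changed in both numbers in T-47D. Its share rose from 18.6% (16.5% to 20.8%) to 43.0%, 47.3% and 51.6% (47.2% to 56.0%), and its UMIs per positive cell rose from 1.40 to 1.62, 1.71 and 1.84. UMIs per positive cell also rise with the mean by counting alone, so this rise does not tell whether few cells or all cells responded. The Fano factor of MYBL1 was between 1.48 and 1.64 in these pools. Cells with 3 or more MYBL1 UMIs were 22 of 1331 at 0 h and 60 of 519 at 8 h, and the highest cell, in the 4 h pool, held 10. MYC in T-47D was seen in 3.01% of cells at 0 h, each with 1 UMI, and in 10.2%, 8.37% and 11.2% later.

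In Ishikawa the share of cells with MYC rose from 17.0% of 676 cells (14.3% to 20.1%) to 28.0% of 1305, 29.8% of 835 and 27.2% of 1336, with 1.24, 1.37, 1.33 and 1.36 UMIs per positive cell. The share with MYBL1 stayed at 13.9% (11.4% to 16.7%), 12.5%, 14.6% and 14.9% (13.0% to 16.9%), while UMIs per positive cell were 1.11, 1.31, 1.23 and 1.40. Among these thinned cells, 0 of 676 held 3 or more MYBL1 UMIs at 0 h and 14 of 1336 did at 8 h. Without thinning, the share with MYBL1 was 18.2% (15.5% to 21.1%) at 0 h and 22.7% (20.6% to 25.0%) at 8 h, with 1.32 and 1.65 UMIs per positive cell, and 8 of 776 and 49 of 1465 cells held 3 or more. MYB was seen in 1.18% to 1.92% of Ishikawa cells. Without thinning, the shares were higher, 24.4% to 42.0% for MYC in Ishikawa.

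**Figure D3:**
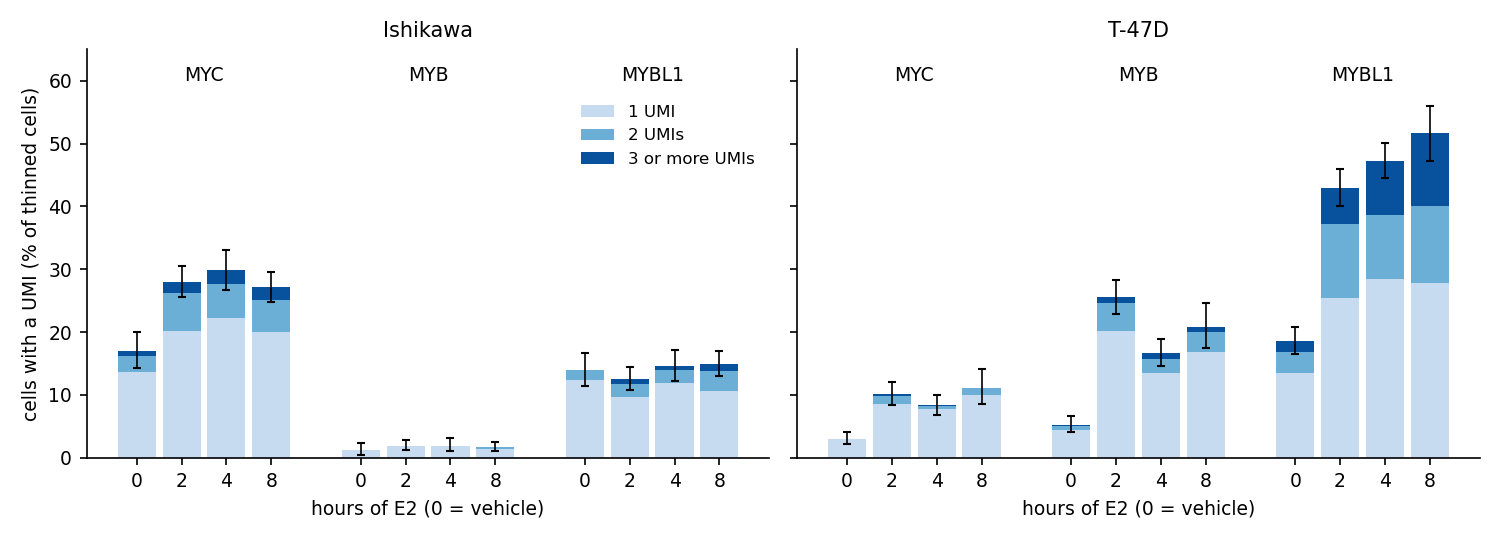
Percent of thinned cells with 1, 2 and 3 or more UMIs of MYC, MYB and MYBL1 (stacked bars) by hours of E2 in Ishikawa (left) and T-47D (right). Error bars are exact 95% binomial intervals of the whole bar, for counting error. MYBL1 in T-47D reaches 51.6% of cells at 8 h, and MYB in T-47D peaks at 25.5% at 2 h.

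Cells with any of the members became the majority in T-47D. They were 25.2% at 0 h (22.9% to 27.7%) and 60.5%, 59.2% and 65.5% after E2. Cells with exactly 2 members rose from 1.58% to 15.2%, 11.5% and 15.4%, and cells with all 3 from 0 of 1331, which allows up to 0.277%, to 1.48%, 0.812% and 1.35%. Such counts rise when the share of each member rises by itself, so they do not show that the members came together in the same cells. In Ishikawa, cells with any member were 30.2% at 0 h and 38.2% to 41.3% later, and at most 1 cell per pool held all 3.

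Across cells of the same line and time the members were at most weakly correlated. Spearman's rank correlation between MYB and MYBL1 in T-47D was 0.001, 0.050, 0.048 and 0.059 in time order, over 1331, 1082, 1231 and 519 cells. In Ishikawa it was 0.039, 0.001, 0.097 and -0.004, and the value at 4 h rested on 6 cells with both genes. In T-47D at 2 h both genes were seen in 11.7% of cells (9.88% to 13.8%), and the product of their shares is 10.96%. The rank correlation of MYC and MYB in T-47D was between -0.018 and 0.070, and between MYC and MYBL1 between -0.067 and 0.023 over both lines. In counts this sparse, such weak values are no finding. MYBL1 and MYBL2 went together more often, with a rank correlation of 0.287, 0.188, 0.230 and 0.190 in T-47D and 0.184, 0.119, 0.124 and 0.081 in Ishikawa. In T-47D at 0 h, 5.33% of cells held both (4.19% to 6.68%), and the product of the shares is 2.08%. All of these cells share a library and a fixed depth.

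MYBL1 was higher in cells with markers of division. Cells with a UMI of TOP2A or MKI67, genes of dividing cells, made up 66.1% to 72.3% of Ishikawa cells and 31.7% to 41.6% of T-47D cells. These cells were also deeper, with medians from 20844 to 22828 UMIs in Ishikawa against 16551 to 18751 in the other cells, and detection of the markers depends on depth. In T-47D at 0 h MYBL1 stood at 28.2 CPM in the cells with a marker (25.2 to 31.4) and 12.1 in those without (10.7 to 13.6), a ratio of 2.33. In Ishikawa at 0 h it stood at 15.9 CPM (13.6 to 18.5) and 3.11 (1.70 to 5.21), a ratio of 5.13. MYBL2 showed a wider gap, with ratios of 26.6 (20.03 to 36.1) in T-47D and 6.94 (4.60 to 10.96) in Ishikawa.

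For MYC and MYB such a difference was not seen beyond counting error in most pools given here. The ratio of MYC between cells with and without a marker was 0.931 in Ishikawa at 0 h (0.714 to 1.22) and 1.53 in T-47D (0.929 to 2.495). That of MYB in T-47D was between 0.801 and 1.18 over the 4 pools, each with an interval that held 1. MYB in Ishikawa rested on 3 to 15 UMIs in the cells without a marker, and its ratio there was above 1 beyond its interval at 8 h alone, at 2.90 (1.23 to 8.36).

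The rise of MYBL1 was present in both classes of cells. In T-47D its log2 fold changes were 1.32, 1.28 and 1.63 in cells with a marker and 1.53, 1.79 and 2.02 in those without, and the ratio between the classes went from 2.33 (1.97 to 2.76) to 1.71 (1.496 to 1.962) at 8 h. In Ishikawa cells without a marker MYBL1 went from 3.11 CPM to 4.61, 7.03 and 8.03 (6.30 to 10.1), from 14, 38, 33 and 73 UMIs. Their log2 fold changes of 0.45, 0.97 and 1.14 stood beside 0.06, 0.23 and 0.43 in the cells with a marker. The share of cells with a marker also differed between pools and was highest at 8 h in T-47D, at 41.6%, so that cell makeup and time move together there. The part of cell makeup in the rise was not tested.

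**Figure D4:**
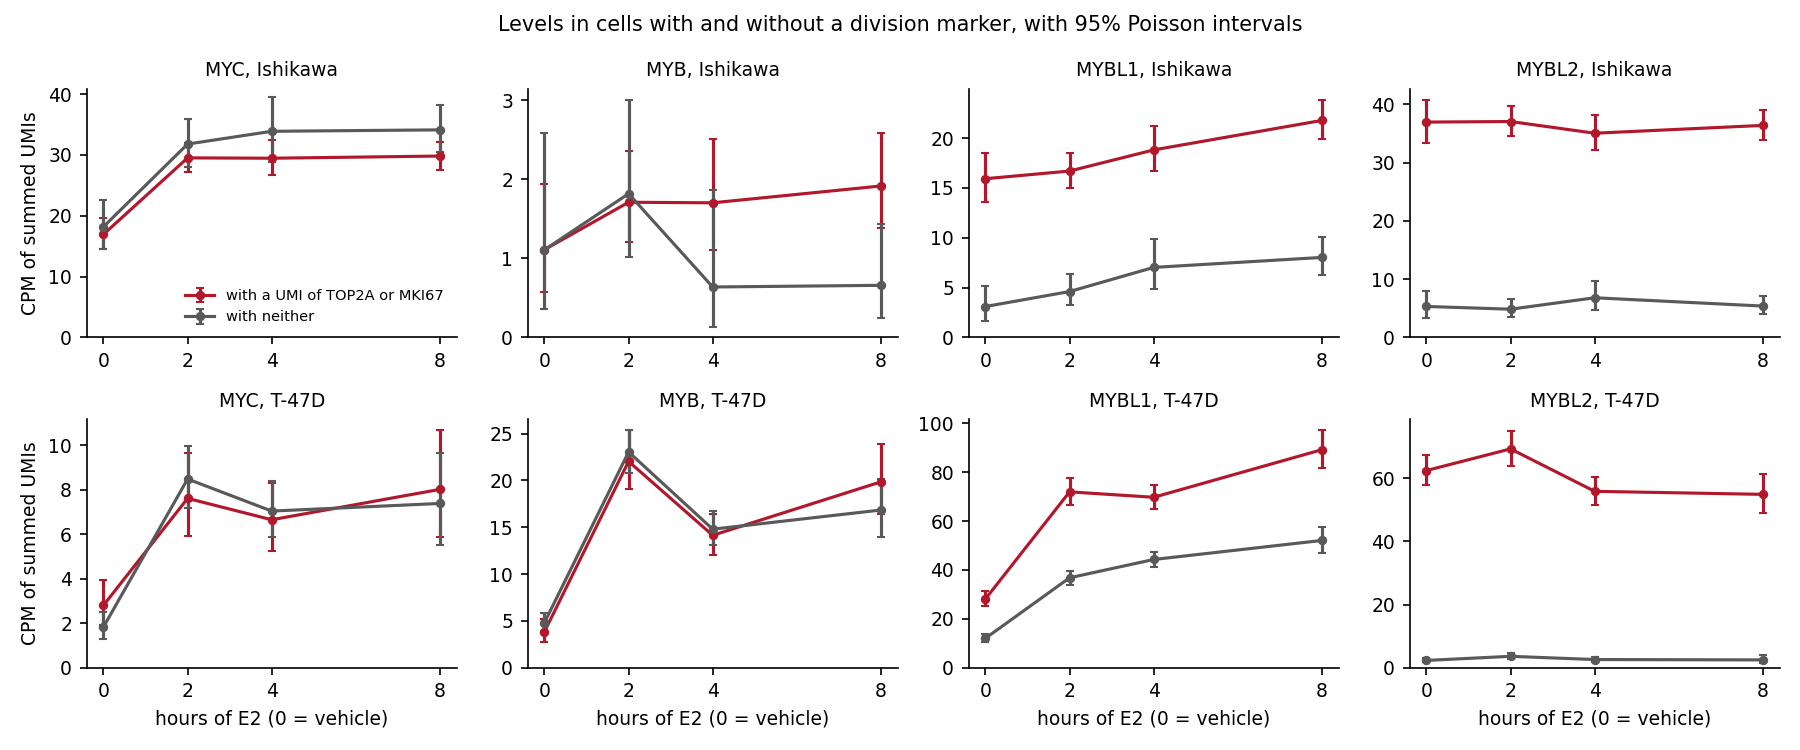
Level (CPM of summed UMIs, y axis) against hours of E2 of MYC, MYB, MYBL1 and MYBL2 in cells with a UMI of TOP2A or MKI67 (red) and in cells with neither (grey), for Ishikawa (top) and T-47D (bottom), with exact 95% Poisson intervals. MYBL1 lies higher in cells with a marker and rises in both classes in T-47D, from 12.1 to 52.1 CPM in the cells without one.

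Genes most like the members across cells were ranked by the mean rank correlation over the 4 times. For MYBL1 these were TYMS, which makes thymidylate for DNA synthesis, CENPU, a centromere protein, and PBK, a mitotic kinase, in T-47D, with means of 0.255, 0.244 and 0.244. In Ishikawa they were RAD51AP1, a recombination factor, ORC6, a subunit of the origin recognition complex, and DIAPH3, an actin nucleator, with 0.237, 0.224 and 0.209. For MYB in T-47D the highest were SLC9A3R1, KCNK6 and XBP1, with 0.106, 0.0969 and 0.0968, and for MYC in Ishikawa RPL10A, OSTC and RPS13, with 0.0828, 0.0815 and 0.0811. The values of MYB and MYC are weak and the names carry little weight. MYC in T-47D and MYB in Ishikawa were under the minimum and were not ranked.

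By the distance between the 3 log2 fold changes, the genes most like MYB in T-47D were RUNX1, KCTD6, AMZ1, AREG and STC2. RUNX1, a transcription factor of blood and breast, was the closest, at a distance of 0.378, with log2 fold changes of 2.01, 1.22 and 1.57. It was picked for being near these 3 values of MYB, so its lower value at 4 h is no separate result. For MYBL1 in T-47D they were THBS1, STC2, PTGES, AREG and GREB1, at distances from 0.209 to 0.287. For MYC in Ishikawa they were SIAH2, NPIPB5, PLCB1, XXYLT1 and HEXDC, with SIAH2, a ubiquitin ligase, at 0.0863. For MYBL1 in Ishikawa they were CCDC85B, PDCD11, DIMT1, CCDC86 and CMTM8, of which PDCD11 and DIMT1 act in ribosome production. These patterns rest on 4 pools each.

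The genes that MYC is known to raise lay mostly above 0, by small amounts. Of 30 such genes, most of them acting in the nucleolus or in biosynthesis, 30 passed the minimum in Ishikawa. None was past the fold rule, where 0.786%, 0.634% and 0.812% of all genes were higher at 2, 4 and 8 h. At these times 26, 29 and 29 lay above 0, with median log2 fold changes of 0.13, 0.22 and 0.34. Over all genes the medians were -0.01, -0.01 and 0.00, and 45.5%, 46.2% and 50.3% lay above 0. NCL (nucleolin) went from 1555 CPM to 1652, 1740 and 2008, and PUS7, a pseudouridine synthase, had the highest change, 0.58 at 8 h. The Ishikawa medians grew from 2 h to 8 h while MYC itself stayed level.

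In T-47D 25 of the 30 passed the minimum, 23 lay above 0 at each time, and the medians were 0.18, 0.32 and 0.32 beside 0.01, -0.01 and 0.01 over all genes. The fold rule was passed by NOP16 at 2 h, by DKC1, NOP16 and RRP12 at 4 h and by none at 8 h, that is 1, 3 and 0 of 25, where 1.22%, 1.33% and 2.34% of all genes were higher. NOP16, a nucleolar protein, went from 17.0 CPM to 26.0, 26.7 and 24.5, and DKC1 (dyskerin) from 42.6 to 51.0, 66.7 and 64.2. ODC1, the textbook MYC target of polyamine synthesis, showed 0.06, 0.00 and 0.02 in T-47D and -0.01, 0.13 and 0.25 in Ishikawa. Across thinned cells, the summed UMIs of these genes were compared between cells with and without a MYC UMI. The mean with minus the mean without was 6.18, -1.18, 1.86 and 7.86 in time order in Ishikawa. It was 1.65, 0.821, 2.28 and -1.73 in T-47D. Ishikawa sums at 0 h were 102.3 ± 26.7 (SD) in 115 cells with a MYC UMI and 96.1 ± 27.4 in 561 without. At 8 h they were 125.4 ± 31.4 in 363 and 117.5 ± 33.6 in 973. In T-47D at 8 h they were 80.8 ± 20.2 in 58 and 82.6 ± 19.9 in 461. These SDs are spreads between cells and not errors of the means, and the differences were not tested. The rank correlation of the sum with MYC was 0.078, -0.022, 0.028 and 0.087 in time order in Ishikawa, and between -0.036 and 0.033 in T-47D.

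Of 4 genes that MYC is known to lower, 3 passed the minimum in each line. NDRG1, a growth arrest gene, was lower in T-47D at 8 h by the rule, at 17.4 CPM at 0 h and 13.0, 13.2 and 8.66 later, where 0.726% of all genes were lower. CDKN2B, a CDK inhibitor, was at 21.1, 13.9, 14.4 and 15.6 CPM in Ishikawa and 26.8, 23.8, 20.1 and 18.9 in T-47D. It did not pass the fold rule in either. In Ishikawa at 2 h it fell just short, with a log2 fold change of -0.57 after 1 CPM was added to each level. CDKN1A had changes from -0.10 to 0.08 over both lines.

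None of MYC's measured partners and turnover factors passed the fold rule, which few genes of any kind passed. Of all genes, 0.634% to 0.812% were higher and 0.469% to 0.659% lower in Ishikawa. In T-47D 1.22% to 2.34% were higher and 0.363% to 0.726% lower. A count of 0 in lists this short is therefore no result about these factors. Of 11 partners 8 and 7 passed the minimum in Ishikawa and T-47D and 0 passed the fold rule. MAX stood at 40.2 to 48.5 CPM in Ishikawa and 35.8 to 44.7 in T-47D. MNT, a repressor that competes for MAX, had the largest change in Ishikawa, 0.52 at 2 h, and MXD3 in T-47D, 0.53 at 8 h. Of 8 turnover factors 8 and 7 passed the minimum and 0 the fold rule, with FBXW7, which marks MYC protein for breakdown, between 25.3 and 29.9 CPM in Ishikawa and 9.19 and 11.8 in T-47D. These are RNA levels, and MYC protein was not measured.

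Genes known as MYB targets were few in these cells. Of 11, 5 passed the minimum in Ishikawa and 4 in T-47D. IGF1R, the IGF1 receptor, was higher by the rule in T-47D at 8 h, at 19.7, 24.5, 28.1 and 33.2 CPM, where 2.34% of all genes were higher, and it is itself known as an estrogen-raised gene. CCNB1 had -0.21, -0.16 and -0.23 in T-47D. BCL2 was below the minimum in T-47D, at 3.84 to 6.03 CPM, and had -0.34, -0.32 and -0.12 in Ishikawa. Of 6 cofactors of MYB, 5 and 3 passed the minimum and 0 the fold rule, with EP300 between 22.0 and 25.9 CPM in T-47D. At most 0.812% of all Ishikawa genes and 2.34% of all T-47D genes were higher at any time, so this 0 is no result. Of 11 genes of the MuvB and DREAM complexes, 7 and 6 passed the minimum and 1, RBL1, was higher by the rule, in T-47D at 8 h, at 8.95, 10.1, 10.6 and 14.3 CPM, beside the same 2.34% of all genes. Its level at 0 h was under 10 CPM, so that it passed the minimum through its levels after E2. RBL1 (p107) is a pocket protein that represses cell cycle genes.

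Beside MYBL1 in the genome, SGK3 passed the fold rule with it in T-47D and VCPIP1 did not. SGK3, a kinase related to SGK1 and AKT, lies 99.6 kb from MYBL1, and VCPIP1, a deubiquitinase, lies between them, 15.3 kb from MYBL1 (distances from RefSeq, GRCh38). In T-47D SGK3 went from 8.98 CPM to 20.2, 31.7 and 36.3, with log2 fold changes of 1.09, 1.71 and 1.90. At these times 1.22%, 1.33% and 2.34% of all genes were higher by the rule. The 0 h level of SGK3 was under 10 CPM, so that it passed the minimum through its levels after E2. VCPIP1 stood at 16.3, 20.2, 19.2 and 18.8 CPM there, with changes of 0.29, 0.22 and 0.19. From 2 h to 4 h SGK3 changed by a ratio of 1.57 (1.41 to 1.75), and MYBL1 by 1.12. SGK3 was the 7th closest of 7439 genes to MYBL1 by its 3 fold changes in T-47D, but only the 668th by mean rank correlation across cells, 0.0631. In Ishikawa SGK3 was at 14.1, 13.6, 15.9 and 16.6 CPM and had no change past the rule.

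No other neighbour passed the fold rule. PVT1, the long noncoding RNA gene 51.6 kb from MYC, changed by 0.10, 0.10 and 0.52 on the log2 scale in Ishikawa and stayed under the minimum in T-47D, at 4.88, 7.31, 7.56 and 8.66 CPM, with changes of 0.50, 0.54 and 0.72. HBS1L and AHI1, at 126.5 kb and 64.4 kb from MYB, had changes between -0.08 and 0.12 in T-47D, where MYB rose. The other listed neighbours of MYB, ALDH8A1 and MYB-AS1, were not among the genes past the minimum. Of all T-47D genes 1.22%, 1.33% and 2.34% were higher at 2, 4 and 8 h. That 0 of 2 measured neighbours of MYB passed the rule is therefore no result about its locus.

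**Figure D5:**
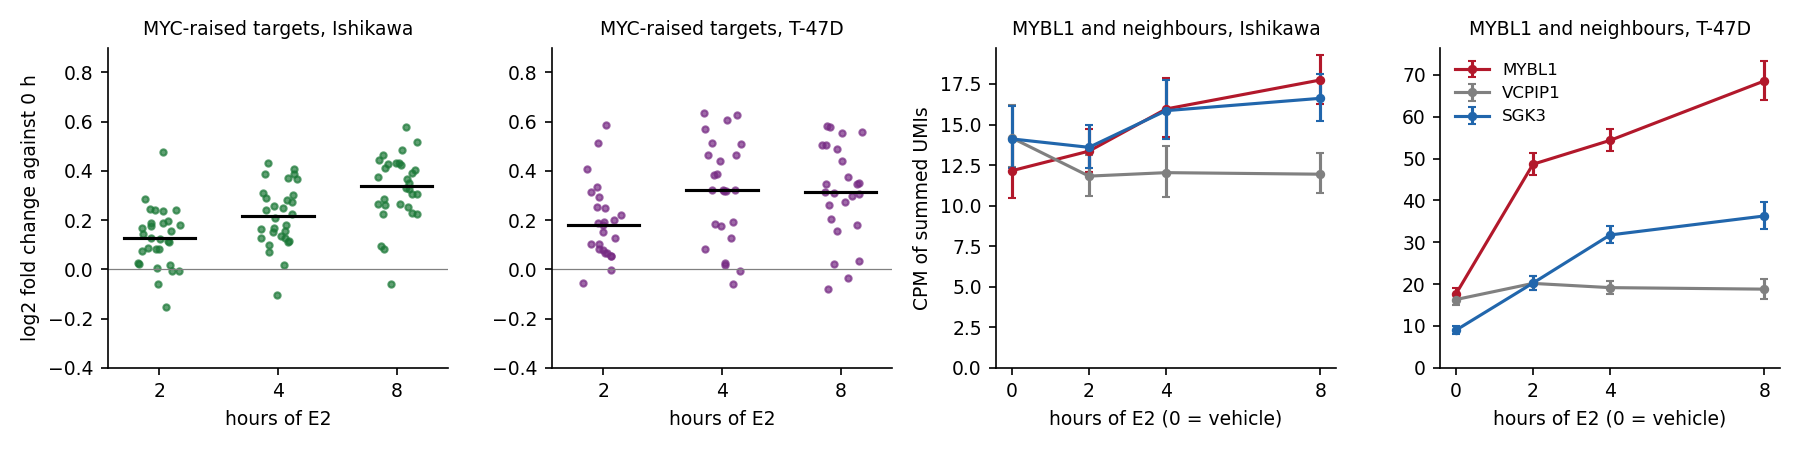
Left pair: log2 fold change against 0 h of each gene that MYC is known to raise and that passed the minimum (30 in Ishikawa, 25 in T-47D), with the median as a bar. Right pair: CPM with exact 95% Poisson intervals of MYBL1, VCPIP1 and SGK3 against hours of E2. The medians lie between 0.13 and 0.34, and SGK3 reaches 36.3 CPM in T-47D while VCPIP1 stays between 16.3 and 20.2.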

How the data were processed

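The deposited files hold counts of UMIs per gene and cell barcode, which the authors made with Cell Ranger 3.1.0 with hg38 as the build per the submitters' processing notes, and a table of the time point or doublet call of each barcode, made by the authors with the demultiplex R package. Cells with 1 time call were kept if they met the limits of the study's methods: 8500 to 35000 UMIs, 2700 to 6000 genes and less than 7% of UMIs from mitochondria in Ishikawa, and 7500 to 40000, 1500 to 6000 and less than 20% in T-47D. Tag doublets (1906 and 1442 barcodes) were left out. Pairs from the same culture carry 1 tag and stay in, so an upper limit of 1.5 times the median UMIs was an alternative.

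UMIs were summed per line and time and scaled to CPM. The pseudocount was 1 CPM, the minimum a mean of 10 CPM over the 4 pools, and the fold 1.5. GFP and tdTomato were not counted as genes. Intervals are exact Poisson (CPM), Clopper-Pearson (shares) and conditional binomial (ratios). Thinning used the 10th percentile of UMIs per line. Members and gene lists were chosen with earlier results of these data known, from general knowledge. Genes named were the members, MYBL2, GREB1, PGR and TFF1, list members past the fold rule or with the largest change, the genome neighbours, and the nearest genes by rank correlation (3) and by fold changes (5). Beyond this, NCL, ODC1, MAX, CDKN1A, CCNB1, BCL2, EP300, CDKN2B and FBXW7 were named after their values were seen. The result of 1 marker gene is not reported here. The scripts were tested on simulated data. Python 3.11.15, scipy 1.17.1 and, for TMM, edgeR 4.0.16 were used.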

Additional observations from a re-analysis of the deposited data

How the results depend on the processing

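The 18 fold changes of the members were recomputed under 8 (T-47D) or 10 (Ishikawa) alternatives each, and 147 of 162 values stayed within the counting interval of the reported one. None of the called changes reversed. In T-47D a pseudocount of 5 CPM lowered MYB to 1.54, 1.04 and 1.29 and MYBL1 to 1.25, 1.39 and 1.70 at 2, 4 and 8 h, by its construction. MYC in T-47D, under the minimum, was then at 0.88, 0.73 and 0.82. Among cells lacking both TOP2A and MKI67 UMIs, MYBL1 was at 0.45, 0.97 and 1.14 in Ishikawa and at 1.79 at 4 h in T-47D. MYB in Ishikawa, which was not called, was then at -0.36 at 4 h and -0.35 at 8 h, on 3 and 6 UMIs. The cause was not tested.

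With a minimum of 50 CPM, 0 members were higher at any time in either line, and with a fold of 2, 0 were higher in Ishikawa. As a mean over cells, 2 members were higher in Ishikawa at 8 h, MYBL1 being at 0.61. In thinned Ishikawa cells MYBL1 was lower than reported, at 0.08, 0.21 and 0.41. Using every called cell, which restores the 0 h Ishikawa cells that the limits removed, MYC was at 0.80, 0.89 and 0.83 there. MYBL1 was then at 0.02, 0.25 and 0.42. In T-47D every called cell had been kept, so that alternative changes nothing and was not counted. TMM, median-of-ratios and totals without reporters and mitochondrial genes changed no count of members. Of the other recomputed values, 59 of 96 shares, 76 of 95 values of UMIs per positive cell, 101 of 107 correlations and 93 of 117 list medians stayed close to those reported (within the counting interval for shares and correlations, 10% for UMIs per positive cell, and 0.1 on the log2 scale with the same sign for medians). No paired analysis was possible because each line and time point was 1 culture.

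Depth limits MYB in Ishikawa and MYC in T-47D most, with 17 to 52 and 72 to 217 UMIs per pool, and no interval covers differences between cultures.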
